A study of Mus musculus with 6 samples.

Results

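RNA of 4 metallothionein genes (Mt1, Mt2, Mt3 and Mt4) and of 4 genes of zinc regulation (Mtf1, Slc30a1, Slc30a3 and Slc39a14) was compared between light damaged and dark adapted mouse retinas. The members were chosen by name, as all Affymetrix probe sets that the platform annotation assigns to one of these genes alone. This gave 17 probe sets of 8 genes, out of 45037 probe sets that are not controls. The retinas came from BALBc mice, an albino strain whose eyes lack the pigment that shields the retina from strong light. All mice spent 1 week in the dark. Light damaged retinas were then exposed for 6 h to white fluorescent light of 6000 lux and taken 24 h after it, while dark adapted retinas had no such light, with 3 arrays of total RNA in each group. The labels do not say whether each array holds a separate animal, a pool or both eyes, so every p-value below covers no more than the spread among these samples, which may be technical.

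Metallothioneins are small, cysteine-rich proteins that bind zinc and copper and scavenge reactive oxygen species. Transcription of Mt1 and Mt2 is switched on by the zinc-sensing factor encoded by Mtf1, which binds short DNA stretches called metal response elements, and also by glucocorticoids, cytokines and oxidative stress. Mt3 is the form typical of the brain, and Mt4 that of stratified squamous epithelium. Of the zinc transporters, the SLC30 family moves zinc out of the cytosol and the SLC39 family moves it in. Slc30a1 sits in the plasma membrane and is itself a target of the Mtf1 factor, Slc30a3 loads zinc into synaptic vesicles, and Slc39a14 takes up zinc, iron and manganese.

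The promoter windows of the 4 metallothionein genes are shown because the genes lie next to each other on chromosome 8 in the order Mt4, Mt3, Mt2, Mt1, all on the + strand, while only some of their probe sets differed between the groups. Each window runs from 250 bases before to 50 bases after the start in the RefSeq promoter table (build GRCm38.p6). Other annotated starts were not used here. Capitals mark the core letters of the metal response element, TGCACNC or TGCGCNC on either strand.
Mt1, chr8:94178839-94179138: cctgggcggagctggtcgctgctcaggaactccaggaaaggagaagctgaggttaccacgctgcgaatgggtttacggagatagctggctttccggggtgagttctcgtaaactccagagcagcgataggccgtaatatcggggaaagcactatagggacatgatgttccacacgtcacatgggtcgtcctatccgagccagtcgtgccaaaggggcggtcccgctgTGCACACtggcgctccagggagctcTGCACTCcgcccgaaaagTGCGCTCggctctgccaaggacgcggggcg
Mt2, chr8:94172368-94172667: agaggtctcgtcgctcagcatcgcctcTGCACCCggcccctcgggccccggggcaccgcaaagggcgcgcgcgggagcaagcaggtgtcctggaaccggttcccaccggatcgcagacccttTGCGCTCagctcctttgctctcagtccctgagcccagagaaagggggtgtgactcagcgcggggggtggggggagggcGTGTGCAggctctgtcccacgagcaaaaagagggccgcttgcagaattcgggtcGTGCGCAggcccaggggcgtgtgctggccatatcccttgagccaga
Mt3, chr8:94152357-94152656: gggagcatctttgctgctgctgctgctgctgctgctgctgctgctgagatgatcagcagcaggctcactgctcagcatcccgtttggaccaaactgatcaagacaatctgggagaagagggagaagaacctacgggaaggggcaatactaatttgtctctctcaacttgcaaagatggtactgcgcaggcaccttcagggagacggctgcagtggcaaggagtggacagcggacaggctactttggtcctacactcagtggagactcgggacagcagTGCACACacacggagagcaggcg
Mt4, chr8:94136954-94137253: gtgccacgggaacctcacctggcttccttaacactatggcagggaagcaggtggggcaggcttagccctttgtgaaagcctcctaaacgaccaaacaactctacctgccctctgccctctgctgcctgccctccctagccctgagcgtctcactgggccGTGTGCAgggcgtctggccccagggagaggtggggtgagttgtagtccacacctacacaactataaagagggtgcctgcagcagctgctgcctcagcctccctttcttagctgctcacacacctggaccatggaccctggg

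The Mt2 window held 4 matches to the metal response core and the Mt1 window 3, while the Mt3 and Mt4 windows held 1 each. Of 32851 RefSeq promoter windows of this length 25.7% held at least 1 match, 1.97% at least 3 and 0.517% at least 4. In Mt1 the matches began 23 bases before the listed start and 3 and 21 bases after it. In Mt2 they lay between 223 bases before and 11 bases after the listed start. These positions and counts hold for the printed windows only, and whether transcription in the retina begins at the listed starts was not tested. Slc30a1 had 2 matches (7.11% of windows hold at least 2), Mtf1 had 0, and the windows of Slc30a3, a gene listed with 2 starts, had 1 and 0. Slc39a14 was not among the promoters used here. The core of the antioxidant response element, TGACNNNGC, was found 1 time in Mt2 and 1 time in Slc30a1 among the members' windows (12.4% of all windows hold it), and the STAT site letters TTCNNNGAA in no member's window (8.3%). Both strands were read, and none of these matches overlapped another. A match is only a run of letters and does not show binding.

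**Figure D1:**
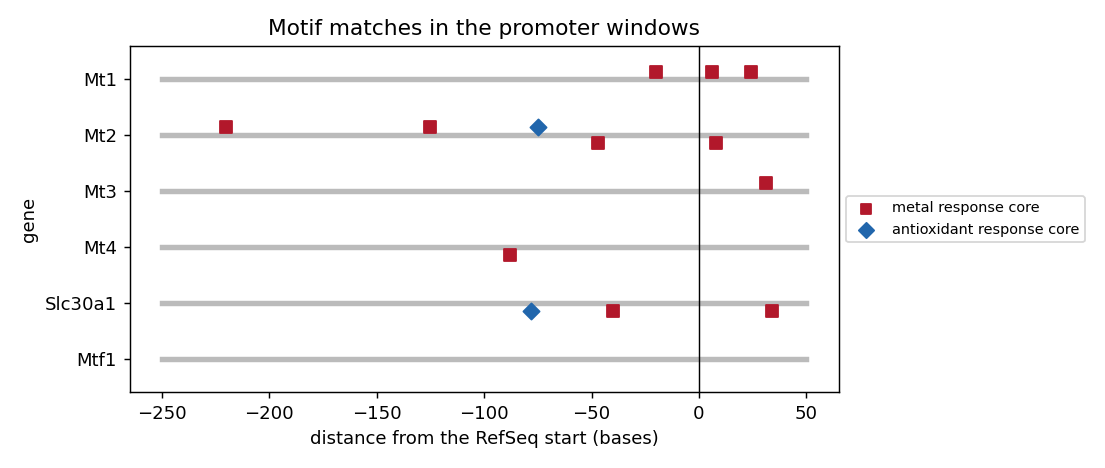
Distance in bases from the RefSeq start (x axis) of motif matches in the promoter windows of 6 genes (y axis), drawn above the line where the motif reads on the gene's strand and below it where it reads on the other. Mt2 has 4 metal response cores, Mt1 has 3, Slc30a1 has 2, Mt3 and Mt4 have 1 each and Mtf1 has 0.

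Mt2 and Mt1 RNA rose strongly after light damage, Mt1 by 1 of its 2 probe sets, and the other 15 probe sets did not pass. None of the 15 had an unadjusted p under 0.05 either in this limma fit, which did not use the replicate numbers. Values are given on the log2 scale of RMA (robust multi-array average), where a difference of 1 stands for a 2-fold difference. Mt2 (probe set 1428942_at, its only one) read 8.94, 8.53 and 8.06 on dark adapted arrays 1 to 3 and 11.30, 11.64 and 11.32 on light damaged arrays 1 to 3. All light damaged values lay far above all dark adapted ones, and the light damaged arrays were close to each other. The group means were 8.51 ± 0.44 and 11.42 ± 0.19 (SD, n = 3 per group), a log2 change of 2.91 ± 0.23 (SE) or 7.52-fold (limma, adjusted p = 0.00264 over all 45037 probe sets).

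Mt1, read by probe set 1422557_s_at, showed the same kind of separation. It gave 9.43, 9.39 and 8.77 in dark adapted and 11.41, 11.77 and 11.39 in light damaged retinas. The groups were well apart, and dark adapted array 3 was the lowest for both Mt1 and Mt2. That array also had the lowest upper quartile over all probe sets (7.41, against up to 7.67 on the others). The means were 9.20 ± 0.37 and 11.52 ± 0.21 (SD, n = 3 per group), with a log2 change of 2.32 ± 0.21 (SE), a 5.01-fold rise (limma, adjusted p = 0.00398). By size of rise Mt2 stood at place 11 and Mt1 at place 35 of the 45037 probe sets, and by p at places 30 and 54.

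These were 2 of the 17 member probe sets, both higher, against 1.02% of all probe sets called at an adjusted p under 0.05 in either direction. Over all probe sets 411 were higher (0.913%) and 47 lower (0.104%). Both calls held with each array left out in turn, with adjusted p up to 0.026 for Mt2 and up to 0.034 for Mt1, and their log2 changes then ran from 2.69 to 3.13 and from 2.11 to 2.44. The groups did not overlap in 4 of the 17 probe sets, 2 of them higher and 2 lower, against 13.2% of all probe sets. The median change of the 17 was 0.016, and that of all probe sets was 0.0086.

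**Figure D2:**
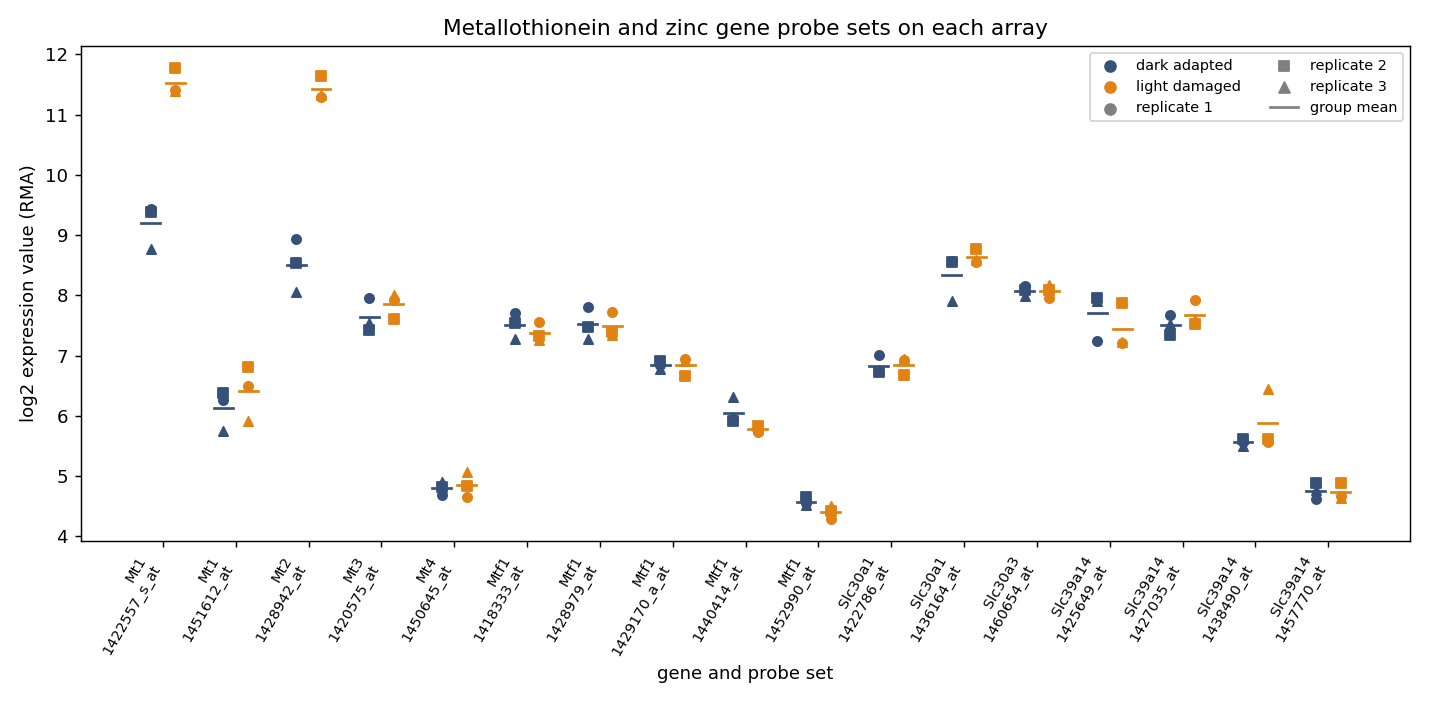
Log2 expression value (y axis) of each of the 17 probe sets (x axis) on the 3 dark adapted and 3 light damaged arrays, with marker shape for the replicate number and a short line for each group mean. The light damaged points of Mt2 and of Mt1 probe set 1422557_s_at lie above 11 while all their dark adapted points lie below 9.5, and the groups lie close together in the other 15.

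**Figure D3:**
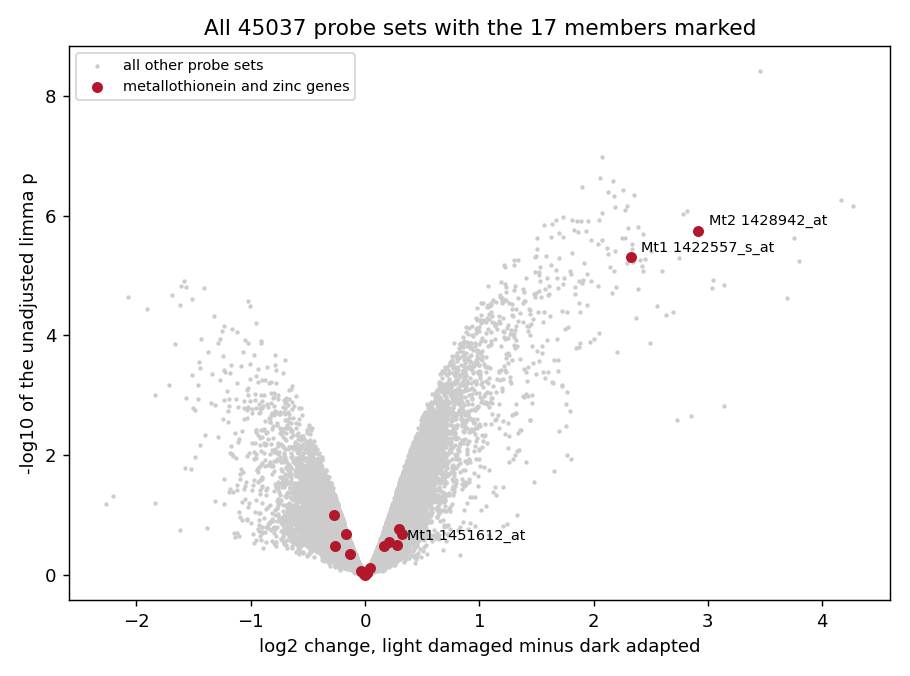
Log2 change (x axis, light damaged minus dark adapted) against the -log10 of the unadjusted limma p (y axis) for the 45037 probe sets, with the 17 of the metallothionein and zinc genes in red. Mt2 (2.91) and Mt1 probe set 1422557_s_at (2.32) stand among the strongly raised probe sets and the others cluster near 0.

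The second probe set of Mt1 did not show a rise of this size. Probe set 1451612_at gave 6.26, 6.38 and 5.75 in dark adapted and 6.50, 6.81 and 5.92 in light damaged retinas. The groups overlapped, with array 3 the lowest in each. Its log2 change was 0.28 ± 0.26 (SE, 95% interval -0.32 to 0.88, adjusted p = 0.906 in limma). Within each array the log2 value of 1422557_s_at minus that of 1451612_at was 3.17, 3.00 and 3.02 in dark adapted and 4.91, 4.96 and 5.47 in light damaged retinas. This difference grew by 2.05 without overlap of the groups (exact two-sided permutation test, p = 0.1, as small as 3 arrays against 3 can give, and 0.667 after Benjamini-Hochberg adjustment over the 20 probe set differences computed).

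The suffix _s_at marks probe sets whose probes are shared by more than 1 transcript, and the sources used here do not say which these are for Mt1. The fold of Mt1 therefore holds for probe set 1422557_s_at only, and how much a related transcript adds to it was not tested. When the probe sets of a gene were averaged on each array, the log2 change of Mt1 was 1.30 ± 0.21 (SE, limma, adjusted p = 0.0216).

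The measured rise of Mt2 was larger than that of either Mt1 probe set, and the size of the gap depended on which was used. With Mt1 1451612_at, the log2 value of Mt2 minus that of Mt1 was 2.64 higher in light damaged than in dark adapted retinas. The log2 value of Mt2 minus that of Mt1 (1422557_s_at), taken within each array, was -0.49, -0.86 and -0.71 in dark adapted and -0.11, -0.13 and -0.06 in light damaged retinas. All 3 light damaged values lay above the dark adapted ones, by 0.59 on average (exact permutation test, two-sided p = 0.1, the smallest possible here, and 0.667 adjusted over the 20 differences), and this test cannot reach 0.05 with so few arrays. Between arrays of the same number the Mt2 change exceeded the Mt1 change by 0.38, 0.73 and 0.65, in 3 of 3 pairs (two-sided exact test over the sign flips of the pairs, p = 0.25, which is as small as 3 pairs allow). Both genes were bright after light damage, and whether array readings understate differences at such levels was not tested.

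Mt3, the brain form, and Mt4, the epithelial form, did not pass the test. Mt3 (1420575_at) gave 7.96, 7.42 and 7.54 in dark adapted and 7.93, 7.62 and 8.01 in light damaged retinas. These groups overlapped, and the log2 change was 0.21 ± 0.18 (SE, 95% interval -0.21 to 0.63, adjusted p = 0.893 in limma). Mt4 (1450645_at) was dim, at 4.69, 4.82 and 4.91 in dark adapted and 4.65, 4.84 and 5.07 in light damaged retinas. Each of its values lay under the lower quartile of its own array (4.98 to 5.11), except on light damaged array 3 (5.07 against 5.05). Its change of 0.046 ± 0.15 (SE, adjusted p = 0.988 in limma) carries little information. Of 5 measured marker genes of keratinocytes and corneal epithelium, tissue that Mt4 is typical of, none passed in limma and none had an unadjusted p under 0.05, and their mean log2 level ranged from 5.52 to 5.92 in dark adapted and from 5.64 to 5.85 in light damaged retinas.

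Mtf1, which encodes the zinc-sensing activator of Mt1 and Mt2, was not called by any of its 5 probe sets. Their log2 changes were all negative, from -0.27 to -0.0067, with a median of -0.13 and 95% intervals between -0.60 and 0.38. The largest was that of 1440414_at, which gave 5.95, 5.91 and 6.31 in dark adapted and 5.74, 5.83 and 5.79 in light damaged retinas. The groups did not overlap, but the difference was close to the spread of the dark adapted arrays (SD 0.22, change -0.27 ± 0.14, SE, limma adjusted p = 0.734). Probe set 1452990_at was also without overlap, at 4.55, 4.65 and 4.51 against 4.29, 4.42 and 4.50, and lay under the lower quartile of every array. The other 3 overlapped, among them 1418333_at (7.70, 7.54 and 7.28 in dark adapted, 7.56, 7.32 and 7.26 in light damaged retinas, change -0.13 ± 0.16, SE). Mtf1 RNA says nothing of how active its protein was.

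The zinc exporter gene Slc30a1 was not called either. Its brighter probe set 1436164_at gave 8.57, 8.55 and 7.90 in dark adapted and 8.56, 8.76 and 8.59 in light damaged retinas. Dark adapted array 3 was the low one, as for Mt1 and Mt2, and the other values were alike (change 0.30 ± 0.20, SE, 95% interval -0.16 to 0.75, adjusted p = 0.826 in limma). Probe set 1422786_at gave 7.01, 6.73 and 6.76 in dark adapted and 6.93, 6.67 and 6.95 in light damaged retinas, a change of 0.016 ± 0.14 (SE). The upper end of the 95% interval of either probe set was at most 0.75. This was under the lower end of those of Mt2 (2.38) and of Mt1 1422557_s_at (1.84). The interval of Mt1 1451612_at (-0.32 to 0.88) overlapped those of both Slc30a1 probe sets.

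Slc30a3, the exporter of synaptic vesicles, showed the smallest change of all members. Its probe set 1460654_at gave 8.15, 8.08 and 7.98 in dark adapted and 7.96, 8.09 and 8.17 in light damaged retinas, so that the groups covered the same range. The change was 0.00071 ± 0.12 (SE), and its 95% interval ran from -0.28 to 0.28. Changes of more than about that size in either direction lie outside the interval.

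Slc39a14, an importer of zinc, iron and manganese, had 4 probe sets that pointed in both directions, with changes from -0.27 to 0.32 and a lowest adjusted p of 0.856 in limma. Probe set 1438490_at gave 5.57, 5.61 and 5.49 in dark adapted and 5.57, 5.62 and 6.45 in light damaged retinas. Light damaged array 3 alone stood high, and without it the change was 0.036. Probe set 1425649_at gave 7.23, 7.96 and 7.91 in dark adapted and 7.21, 7.87 and 7.23 in light damaged retinas, with dark adapted array 1 and light damaged arrays 1 and 3 low. Probe set 1427035_at changed by 0.17 ± 0.16 (SE), and 1457770_at lay under the lower quartile of every array (4.61 to 4.89).

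**Figure D4:**
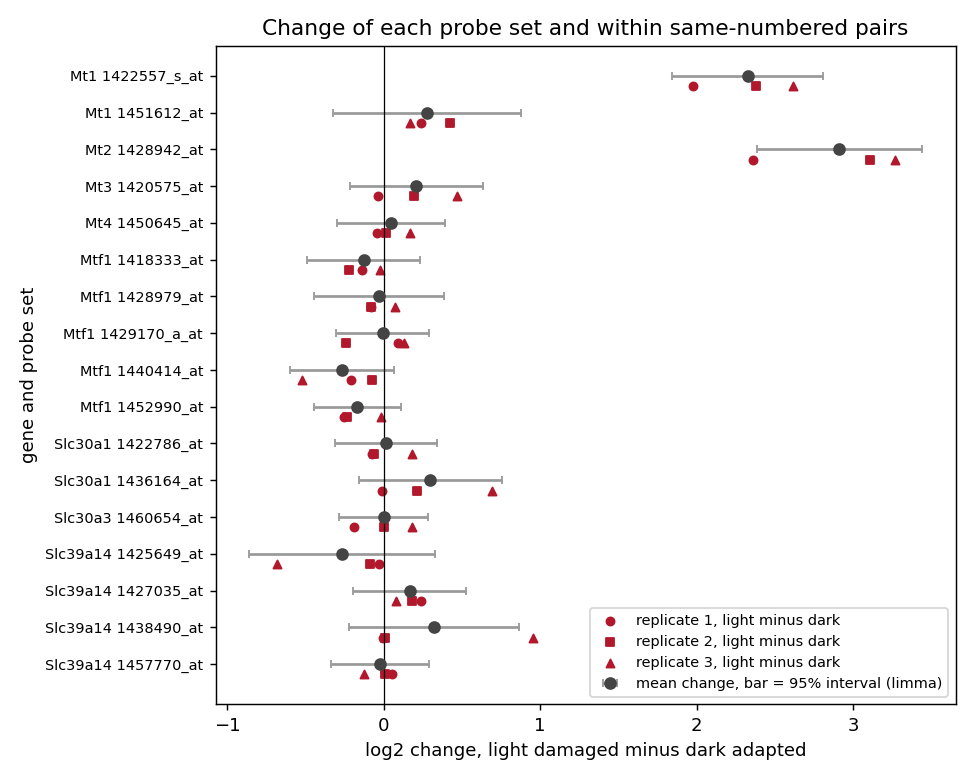
Log2 change of each of the 17 probe sets (y axis) with its 95% interval from limma (x axis, light damaged minus dark adapted), and below each the differences within the 3 pairs of same-numbered arrays. The intervals of Mt2 (2.38 to 3.44) and Mt1 probe set 1422557_s_at (1.84 to 2.81) lie far above 0, and those of the other 15 include 0.

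The titles number the arrays 1 to 3 in both groups, and same-numbered arrays deviated from their group means together. With the replicate number as a block, which the data and not a label support as a pairing, Mt2 and Mt1 1422557_s_at were again the only members called (limma, adjusted p = 0.000576 and 0.000517), although 4.68% of all probe sets were called in that fit. Mt1 1451612_at was higher in all 3 pairs, by 0.24, 0.42 and 0.17, but was not called with the block (limma, unadjusted p = 0.031, adjusted p = 0.214). Slc30a1 1436164_at differed by -0.012, 0.22 and 0.69 within the pairs (limma with the block, adjusted p = 0.33). Within the 3 pairs Mt2 was higher by 2.36, 3.11 and 3.27 and Mt1 1422557_s_at by 1.98, 2.38 and 2.62.

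Of the other zinc transporters 1 importer gene was called. None of the 8 further SLC30 exporter genes passed in limma, none had an unadjusted p under 0.05, and their median change was 0.043, against 0.032 over the highest-mean probe sets of all 18193 genes. Among these, 1.30% were called higher and 0.159% lower. The SLC30 gene with the smallest p was Slc30a4, a vesicular zinc exporter (0.16 ± 0.17, SE, adjusted p = 0.93 in limma). Of the 13 further SLC39 importer genes 1 rose, none fell, the remaining 12 did not pass, and the list's median was 0.081; 2 of the 13 had an unadjusted p under 0.05. The gene that rose was Slc39a1, a zinc importer of the plasma membrane. Its single probe set gave 7.56, 7.27 and 7.08 in dark adapted and 8.46, 8.37 and 8.17 in light damaged retinas, without overlap. The means were 7.31 ± 0.24 and 8.33 ± 0.15 (SD, n = 3 per group), a 2.03-fold rise (limma, adjusted p = 0.0331). The size of the rise stayed between 0.91 and 1.15 with any 1 array left out, but its limma call was lost in 5 of these 6 fits, all but the one without dark adapted replicate 1 (adjusted p up to 0.159). It was also lost after centring the arrays on reference genes (0.69, adjusted p = 0.0769), and it held with the replicate block (adjusted p = 0.00279). Copper, the other metal bound by metallothioneins, was represented by 15 genes, of which Cp, the copper-binding ferroxidase ceruloplasmin, rose 4.37-fold (adjusted p = 0.00381 in limma, with 7 other probe sets between -0.05 and 3.03), the remaining 14 did not pass, and the list's median was 0.27. Of these 15 copper genes 3 had an unadjusted p under 0.05 in limma, and 2 were called higher with the replicate block, Cp among them.

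None of 12 glucocorticoid-responsive genes passed in limma (2 had an unadjusted p under 0.05, and 1 was higher with the replicate block), and their median change was 0.011. Tsc22d3 and Fkbp5, which glucocorticoids induce in many tissues, changed by -0.045 ± 0.19 and 0.18 ± 0.14 (SE), and Cdkn1a, a cell cycle inhibitor, had the smallest p (0.47 ± 0.13, adjusted p = 0.211 in limma). The last list, of cytokine and oxidative signalling, mixes receptors, transcription factors, a feedback inhibitor and enzymes, so it is not a list of metallothionein inducers. Of its 13 genes 6 rose, none fell, the remaining 7 did not pass, and the list's median was 0.88. These 6 belong to interleukin 6 type signalling and to acute-phase and AP-1 transcription, and the 4 with the largest change were Cebpd, an acute-phase transcription factor (4.27), Osmr, the oncostatin M receptor (3.04), Socs3, a feedback inhibitor of cytokine signalling (2.35), and Junb, an AP-1 subunit (2.18). Stat3, the transcription factor of this pathway, and Il6st, its shared receptor subunit, rose by 1.77 and 1.15. Stat3 lost the call without light damaged replicate 1 or 3 (limma adjusted p up to 0.0844) and Il6st without light damaged replicate 2 or 3 (up to 0.0627). Another probe set of Cebpd gave 0.58, and other probe sets lay between -0.12 and 1.84 for Osmr, -0.04 and 1.92 for Stat3, 2.49 and 3.75 for Socs3 and 0.76 and 1.04 for Il6st. None of the 7 listed genes of the oxidative stress factor encoded by Nfe2l2, itself included, passed in limma, although 4 had an unadjusted p under 0.05 and 4 were called with the replicate block. The largest changes among them were those of Hmox1, heme oxygenase 1 (0.88 ± 0.32, SE, adjusted p = 0.445 in limma), and Txnrd1, a thioredoxin reductase (0.87 ± 0.16, adjusted p = 0.0684). This list was written with earlier results of these arrays known, so its count is no independent evidence of direction. With the replicate block 14 genes of the 5 lists were called in place of 8 (over all genes 4.58% higher and 1.41% lower with the block), and without light damaged replicate 3 the count was 5.

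**Figure D5:**
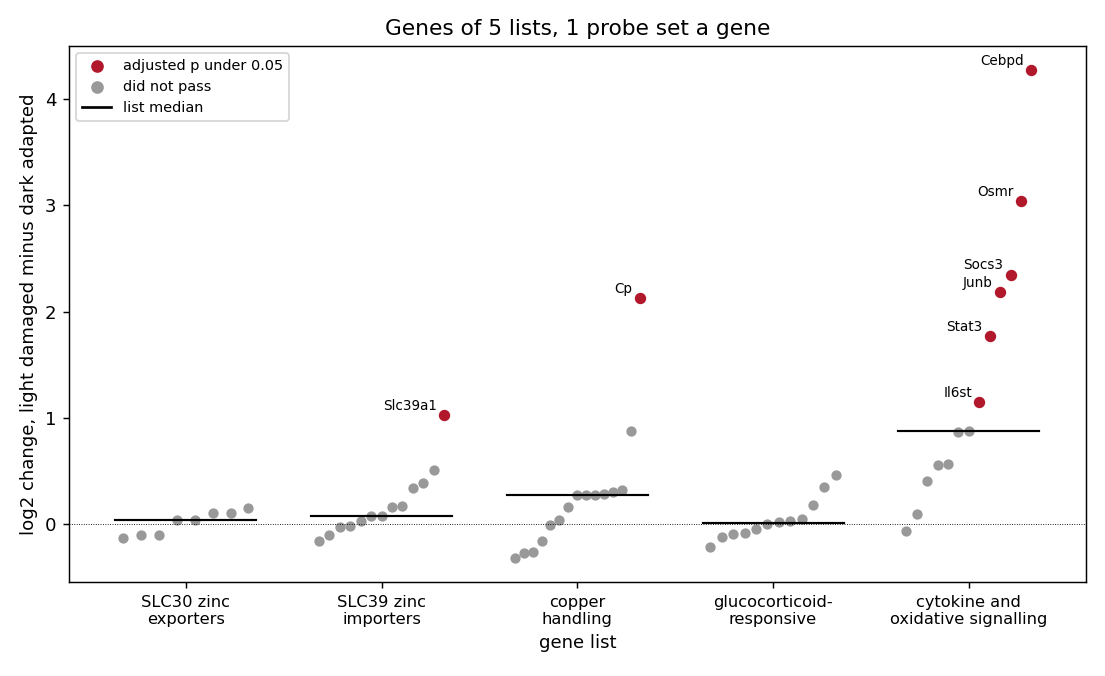
Log2 change (y axis, light damaged minus dark adapted) of the measured genes of 5 lists (x axis), 1 probe set a gene, with genes at an adjusted p under 0.05 in red and a line at each list's median. Slc39a1, Cp and 6 genes of cytokine and AP-1 signalling are the genes called, and no gene of the SLC30 or glucocorticoid lists is.

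The genes whose pattern over the 6 arrays was most like that of Mt2 were Pdpn, Bcl3, Ifitm3, Lrrc2 and Met, by the root mean square difference of log2 values centred on each gene's mean. Pdpn, which encodes the membrane protein podoplanin, differed by 0.145, and the others by 0.304 to 0.339. For Mt1 (1422557_s_at) they were Met, a growth factor receptor gene (0.134), Bcl3, a partner of NF-kappaB (0.151), Gbp6 (0.175), Ifitm3 (0.21) and B2m (0.217), the last 3 interferon-responsive genes. Met, Bcl3 and Ifitm3 stood on both lists. Likeness over 6 arrays in 2 groups is mostly that of the group difference. For the second Mt1 probe set, 1451612_at, taken as well after its values were seen, they were Rtcb, Selenok, Mcm5, Washc2 and Ctss (0.082 to 0.107), and none of these was called.

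Markers of other cells were read on the same arrays. Over the highest-mean probe sets of all genes 1.30% were called higher and 0.159% lower in limma, and 4.58% and 1.41% with the replicate block. The rod genes Gnat1 and Sag had group means of 13.45 and 13.49 in dark adapted and 13.06 and 13.39 in light damaged retinas, so the arrays carry the markers of the labelled tissue. Of 8 measured genes of Müller glia and astrocytes, cells in which metallothioneins are made, 3 rose and none fell, namely Gfap (1.75), Vim (1.67) and Aldh1l1 (2.27), while Glul, a Müller cell enzyme, changed by -0.99 (adjusted p = 0.109 in limma). With the replicate block 5 of the 8 were called higher, Slc1a3 and Kcnj10 among them (limma adjusted p = 0.0198 and 0.00822), and 1 lower, Glul (0.00483). The list's mean log2 level was 8.90 to 9.24 in dark adapted and 9.58 to 10.00 in light damaged retinas. Of 7 microglia and macrophage genes 1 rose, the lysosomal gene Cd68 (1.88), and the list's mean level was 6.07 to 6.25 against 6.44 to 6.61. With the block C1qa was called higher as well and P2ry12 lower (limma adjusted p = 0.0037 and 0.0394). None of 8 pigment epithelium, 6 vascular or 4 blood cell genes was called in limma (1 of each had an unadjusted p under 0.05), and the pigment epithelium list's level ranged from 6.51 to 6.97 in dark adapted and from 6.46 to 7.23 in light damaged retinas. Of 5 rod genes none was called in limma (4 had an unadjusted p under 0.05, and 3 fell with the replicate block), and 3 of 5 cone genes fell (4 with the replicate block). Whether the rises of Mt1 and Mt2 come with a change in these cells' share of the RNA was not tested, and in whole retinas more cells of a type and more RNA per cell cannot be told apart.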

How the data were processed

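Total RNA of 6 retina samples was read on Affymetrix arrays. RMA, of unstated version, was used by the authors to make them, per the submitters' processing notes. It corrects the background, normalizes arrays by quantiles and summarises probe sets, and thus hides any difference in the total RNA of a retina. The deposited values are log2, judged from their range of 3.30 to 13.89, with array medians of 6.15 to 6.18, and were used as deposited. Upper quartiles were less alike, from 7.41 on dark adapted array 3 to 7.67 on light damaged array 1. Of 45101 probe sets 64 were controls, 34945 had 1 gene, 932 several and 9160 none in the platform annotation. Symbols were checked through Entrez identifiers in RefSeq GRCm38.p6 (34741 matched, 0 changed), and promoter sequences are RefSeq's, found for 7 of the 8 genes.

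All 45037 other probe sets were fitted with limma 3.58.1 (lmFit and eBayes) in R 4.3.3, called at a Benjamini-Hochberg adjusted p under 0.05, without a filter on level. The fit was also run on simulated data with independent noise. These data had no deviations shared by same-numbered arrays, so that run does not test the fit under such sharing. Lists use the highest-mean probe set of each gene. From each list the genes past the threshold are named, up to 4 by size, or else the 1 with the smallest p, and Stat3, Il6st, Tsc22d3, Fkbp5, Hmox1 and Txnrd1 were added after their values were seen. The members, lists, motifs and tests were chosen with earlier results of these data known. Same-numbered arrays deviated together (correlations of their deviations 0.731, 0.618 and 0.432, others -0.48 to 0.00902). They were treated as pairs only where the replicate block, the sign flips or differences within pairs are named, on the evidence of the data and not of a label. The main limma fit, with its p-values and intervals, did not use the pairs.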

Additional observations from a re-analysis of the deposited data

How the results depend on the processing

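The rises of Mt2 and Mt1 1422557_s_at passed in every alternative in which they were tested (16 and 15), with log2 changes of 2.58 to 3.13 and 1.30 to 2.44, the lowest of Mt1 being the mean with its other probe set, and limma adjusted p up to 0.026 and 0.034. No other member passed in any alternative run. Without probe sets shared by several transcripts 1 member was called in place of 2, since that of Mt1 is then not tested. Centring the arrays on 6 reference genes, whose mean change was 0.33, moved the median of all probe sets to -0.32 and, by that construction, turned Mt1 1451612_at (-0.057), Mt3 (-0.12), Mt4 (-0.29), Slc30a1 1422786_at and 1436164_at (-0.32 and -0.035), Slc30a3 (-0.33) and Slc39a14 1427035_at and 1438490_at (-0.17 and -0.012). Quantile normalization again turned Slc30a1 1422786_at (-0.017), Slc30a3 (-0.10) and Slc39a14 1457770_at (0.0084). The log2 changes in that setting were 2.77 for Mt2, 2.18 for Mt1 1422557_s_at and 0.19 for Slc30a1 1436164_at. With 1 array left out the changes that turned sign ran from -0.066 to 0.15 for Mt4, -0.15 to 0.11 for Mtf1 1428979_at, -0.059 to 0.079 for Mtf1 1429170_a_at, -0.034 to 0.11 for Slc30a1 1422786_at, -0.046 to 0.055 for Slc30a3 and -0.099 to 0.041 for Slc39a14 1457770_at. Without turning, they ran from 0.076 to 0.52 for Mt1 1451612_at, 0.10 to 0.37 for Mt3, 0.079 to 0.41 for Slc30a1 1436164_at, -0.50 to -0.14 for Slc39a14 1425649_at, 0.046 to 0.25 and 0.036 to 0.48 for Slc39a14 1427035_at and 1438490_at, -0.24 to -0.030 for Mtf1 1418333_at, -0.34 to -0.14 for Mtf1 1440414_at and -0.21 to -0.11 for Mtf1 1452990_at. None of these was called in any of the 6 fits.

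Over all probe sets 458 were called (89.7% higher), 2109 with the replicate block (74.4% higher), 279 without probe sets shared by several transcripts, 569 after quantile normalization again (70.7% higher), 614 after reference centring (33.4% higher) and 128 to 380 with 1 array left out. With the replicate block the genes called in the 5 lists numbered 14 in place of 8, and 17 when only 1 probe set a gene was adjusted for, a setting added after the data were seen. With 1 array left out they numbered 5 to 8. The block changed no call of a member. Precision is limited by having 3 arrays in a group, and dim probe sets (Mt4, Mtf1 1452990_at and Slc39a14 1457770_at) are limited by background.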

Other observations

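The genes next to the metallothionein cluster were read as well, chosen by position and outside the rule for named genes. Of the 4 protein-coding genes on each side, 7 had probe sets of their own here, 13 in all, and 1 of these was called, against 1.02% of all probe sets. It belongs to Nlrc5, a regulator of MHC class I genes and the farthest of the 4 on the Mt1 side, which went from 4.85 ± 0.08 to 6.35 ± 0.15 (log2, SD, n = 3 per group), a 2.83-fold rise (limma, adjusted p = 0.00348). Nup93, a nuclear pore gene and the direct neighbour of Mt1, changed by 0.54 ± 0.17 (adjusted p = 0.322 in limma), and Bbs2, a cilium gene next to Mt4, by -0.23 ± 0.17 (adjusted p = 0.859). The 2 probe sets of Herpud1, a gene of the unfolded protein response, changed by 0.37 ± 0.13 and 0.40 ± 0.14, with adjusted p of 0.419 and 0.412 in limma.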
